A study of Homo sapiens with 20 samples.

Results

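AP-1 and immediate early genes were followed across SKBr3 cells, a human breast cancer line that carries extra copies of ERBB2, exposed to growth factors or grown to lapatinib resistance. The set held 10 genes, which were the Fos family members FOS, FOSL1 and FOSL2, the Jun family members JUN, JUNB and JUND, the related factor ATF3, the zinc finger factor EGR1, and the early response genes IER3 and IER5. They were taken by symbol from the platform annotation, where 12 of the 47323 probes of the array named a member. Detection meant a detection p-value under 0.01 on that array, and a probe passed if both arrays of 1 group or more detected it. Of the 12 probes, 9 passed, each for a different gene, among 15444 passing probes and 9592 passing genes in all. FOS and 2 of the 3 ATF3 probes did not pass.

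The 20 Illumina HumanHT-12 v4 arrays fell into 10 groups of 2. Cells received pooled siRNAs against ERRα (siERRα), an orphan nuclear receptor that controls energy metabolism, or control siRNAs (siC), for 60 h. EGF siERRα, EGF siC, HRG siERRα and HRG siC cells were serum-deprived and then given EGF or heregulin (HRG) at a stated 100 µM, whereas starved siERRα and starved siC cells were deprived and given vehicle (PBS). Resistant siERRα and resistant siC cells were LRSKBr3, derived by long-term culture with lapatinib, which blocks the kinases EGFR and ERBB2, and kept in it, whereas parental siERRα and parental siC cells were pSKBr3 in serum with DMSO vehicle. The resistant cells were a single derived line, so resistance, the history of that line and the presence of lapatinib in place of vehicle cannot be told apart. The labels gave serum deprivation as 24 h in one field and 48 h in another, and lapatinib as 2 µM in the protocols and 1 µM in the sample group. They gave growth factor exposure as 24 h, while the study's methods named a shorter exposure for cells collected for RNA, and for genes whose transcripts are known to peak early this leaves the time of sampling unsettled. Nothing stated that replicates were separate cultures, so p-values measure the spread between these arrays, which may be technical.

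AP-1 is a family of dimers of basic leucine zipper proteins, in which a Jun protein pairs with a Fos protein, with another Jun protein or with an ATF protein such as ATF3, and binds the sequence TGACTCA or its longer relative TGACGTCA. Ligand binding to EGFR or ERBB3 activates ERK kinases, which phosphorylate ETS partners of serum response factor (SRF) on CArG boxes and so switch on FOS, EGR1 and other immediate early genes without need of protein synthesis. FOSL1 and FOSL2 usually follow as a later wave, and JUND is known for steady expression.

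RefSeq held promoter windows for 8 of the 10 members, 9 windows in all on GRCh38.p14, from which the 250 bases before the start site were read. The sequences of EGR1, JUN and IER5, which were called with both growth factors, and of JUND, which was called with neither, are given 5′ to 3′ on the strand of the gene. They lie at chr5:138465229-138465478, chr1:58784048-58784297 (minus strand), chr1:181088450-181088699 and chr19:18281623-18281872 (minus strand), in that order, immediately upstream of the first exon. Capitals mark the motif matches.
EGR1: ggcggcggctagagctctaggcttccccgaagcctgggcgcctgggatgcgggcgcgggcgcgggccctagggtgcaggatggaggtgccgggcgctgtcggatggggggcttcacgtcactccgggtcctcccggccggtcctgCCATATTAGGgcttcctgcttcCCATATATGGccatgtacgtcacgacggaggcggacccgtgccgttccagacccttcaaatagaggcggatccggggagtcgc
JUN: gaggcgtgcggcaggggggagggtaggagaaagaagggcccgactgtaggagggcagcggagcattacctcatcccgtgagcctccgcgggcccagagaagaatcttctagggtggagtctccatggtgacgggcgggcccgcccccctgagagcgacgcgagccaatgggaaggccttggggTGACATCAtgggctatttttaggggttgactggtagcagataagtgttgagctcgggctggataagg
IER5: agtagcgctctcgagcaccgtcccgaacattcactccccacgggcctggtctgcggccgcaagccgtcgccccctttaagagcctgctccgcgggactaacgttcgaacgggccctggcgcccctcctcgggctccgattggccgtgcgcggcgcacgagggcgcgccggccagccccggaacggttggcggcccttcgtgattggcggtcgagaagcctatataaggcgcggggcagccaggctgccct
JUND: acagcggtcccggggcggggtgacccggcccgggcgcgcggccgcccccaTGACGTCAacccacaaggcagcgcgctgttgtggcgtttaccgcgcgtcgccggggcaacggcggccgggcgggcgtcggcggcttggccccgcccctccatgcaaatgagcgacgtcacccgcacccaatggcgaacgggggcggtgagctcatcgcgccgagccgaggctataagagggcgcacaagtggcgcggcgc

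Both strands of every window were searched for the TRE (TGACTCA), the CRE (TGACGTCA), the variant TGACATCA, the CArG box of SRF, the EGR1 site GCGTGGGCG and the ERRα element TCAAGGTCA, none of which contains another. EGR1 carried 2 CArG boxes, which began 105 and 83 bases before the start site, and 1.16% of 35116 RefSeq windows of this length held a CArG box. JUN carried the variant TGACATCA from 67 bases before its start site, as did 1 of the 2 ATF3 windows from 123 bases before, against 2.37% of windows. JUND carried a CRE from 200 bases before its start site, against 1.65% of windows. No window of a member held the TRE, the EGR1 site or the ERRα element, whose shares over all windows were 4.2%, 0.72% and 0.319%, and IER5, JUNB, FOS and FOSL2 held no match. These matches describe letters in a window and not bound sites, and bases farther upstream, as of FOS, were not searched.

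Array quality bears on several results. EGF siERRα replicate 1 stood apart, with correlations of 0.830 to 0.875 across genes with the other 19 arrays, which correlated with each other at 0.933 to 0.990, and it had 12151 detected probes against 12582 to 15177. Since all groups shared 1 estimate of the spread, results are given with 20 arrays and, where it matters, with 19, the fit that drops this array. The siRNA target ESRRA fell by 1.47 on the log2 scale on average over the 5 settings (SE 0.14, adjusted p = 0.000529). By setting its log2 fold change was -1.28 with EGF (-0.83 with 19 arrays), -0.99 with HRG, -1.14 in starved, -2.61 in resistant and -1.33 in parental cells, and of these the value in resistant cells alone passed the test (adjusted p = 0.00797). ERBB2, GRB7, KRT8, KRT19 and EPCAM were detected on 20 arrays and KRT18 on 19, whereas CDH1, which SKBr3 cells are known to lack, ESR1, and the leukocyte, endothelial and stromal markers PTPRC, CD3E, PECAM1, COL1A1, COL1A2 and DCN were detected on 0. Other such markers were detected, CDH5 on 19 arrays, VWF on 9, LYZ on 6 and COL3A1 on 1, and their part in the results was not tested.

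**Figure D1:**
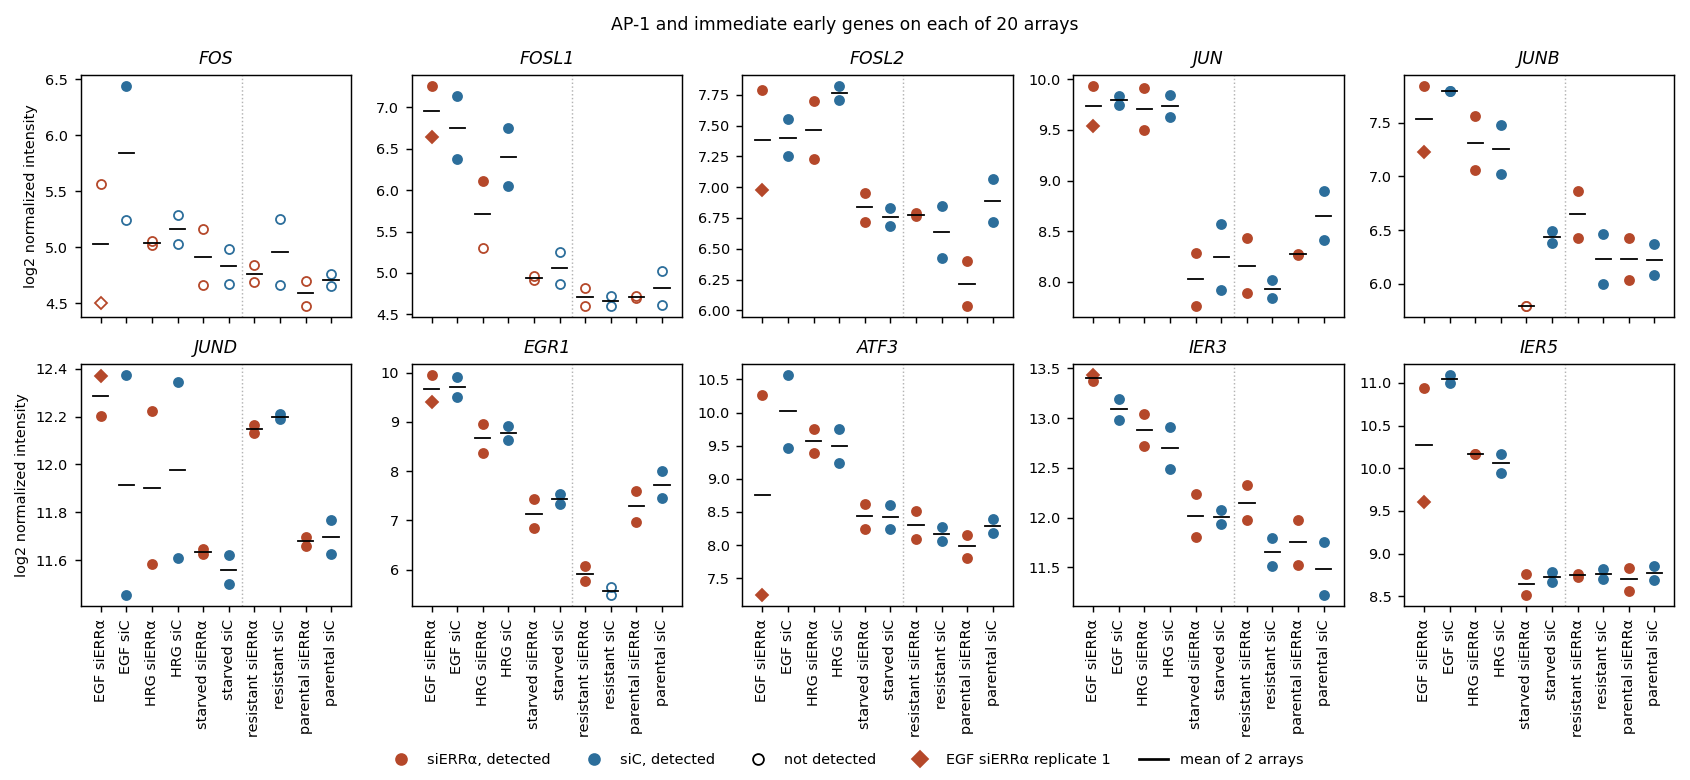
Log2 normalized intensity (y axis, 1 scale per gene) of each of the 10 genes on each of 20 arrays, by group (x axis), with siERRα in red, siC in blue, open symbols where the probe was not detected, a diamond for EGF siERRα replicate 1 and a bar for the mean of 2 arrays. By group mean the growth factor groups sit highest for every gene but JUND, although FOS and FOSL1 were below detection on every array of the other groups. EGR1 falls below detection on both resistant siC arrays.

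EGF raised most of the members that were measurable without it. FOSL1 passed the detection filter only through growth factor groups, in which it was high, so it is left out of these counts and described on its own. Of the 8 others, 5 were called higher in siC cells with EGF than in starved cells and 0 lower, with a median log2 fold change of 1.45, against -0.06 over all genes. The share of all 9592 genes called in this comparison was 5.23% in either direction and 3.46% higher, or 4.89% and 3.09% without the 230 genes that passed only through growth factor groups. Without the array that stood apart, 6 of the 8 were called, against 11.7% of genes in either direction and 6.75% higher. Without starved siC replicate 2 or EGF siC replicate 2, 2 and 3 members were called. The EGF calls of JUNB and IER3 also ended without starved siC replicate 1 or EGF siC replicate 1. HRG raised 3 of the 8 members over starved cells, with a median of 1.04 against -0.05 over all genes. Here 2.91% of all genes were called and 1.94% were called higher. Without starved siC replicate 1 or 2 or HRG siC replicate 1 or 2, 1, 0, 0 and 1 members were called with HRG. With 19 arrays, 4 of the 8 were called with HRG, against 7.64% of genes called and 4.4% called higher. These arrays measure bulk RNA, so more cells expressing a gene and more RNA per cell cannot be told apart, and both comparisons share the starved siC arrays.

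**Figure D2:**
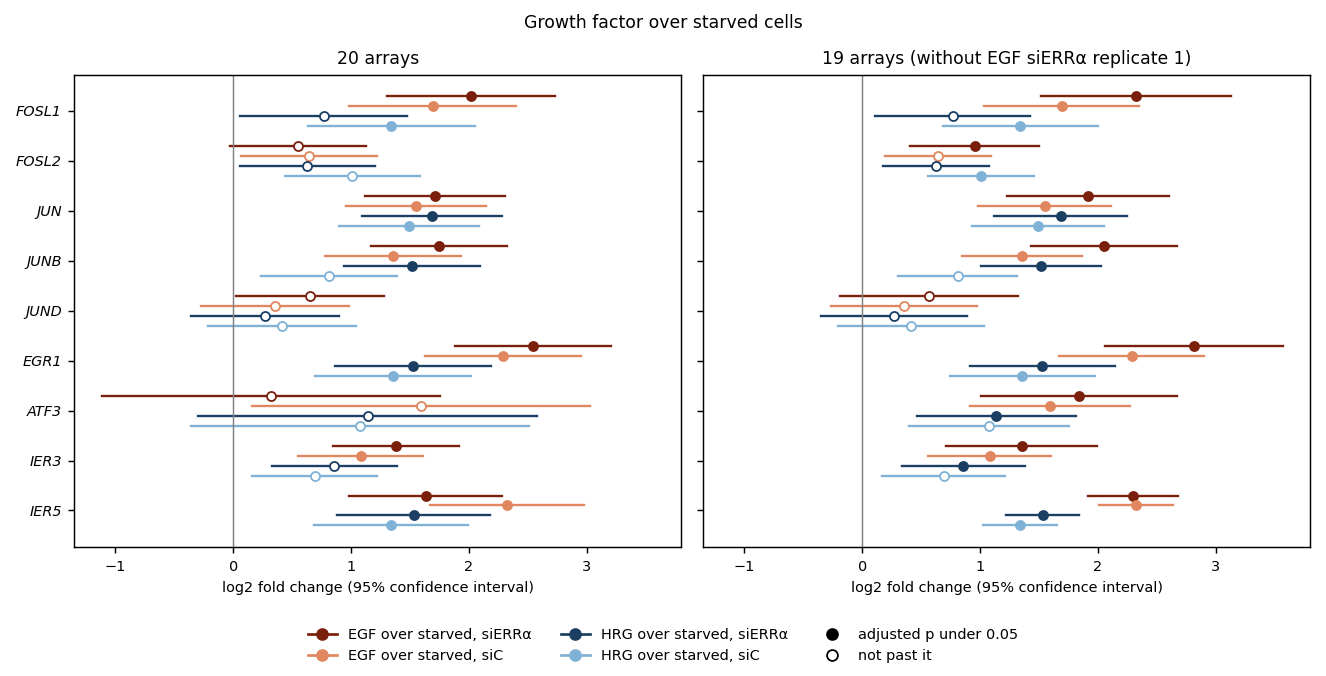
Log2 fold change (x axis) of each tested gene (y axis) with EGF or HRG over starved cells, with 95% confidence intervals from the fit of 20 arrays (left) and of 19 (right), filled where the adjusted p was under 0.05. EGR1 and IER5 had the largest EGF values in siC cells (2.29 and 2.32), and ATF3 moves between the panels.

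EGR1, a zinc finger factor that binds GC-rich promoters, gave among the strongest responses. Its log2 intensity was 9.50 and 9.92 on the EGF siC arrays and 8.64 and 8.92 on the HRG siC arrays, against 7.52 and 7.32 on the starved siC arrays. All 4 growth factor arrays lay above both starved arrays, and both EGF arrays above both HRG arrays. The log2 fold change was 2.29 with EGF (SE 0.31, adjusted p = 0.000698) and 1.36 with HRG (SE 0.31, adjusted p = 0.0298). The HRG call, though not the EGF call, ended when any of the 4 arrays compared was left out, at adjusted p-values of 0.121 to 0.216. The promoter with 2 CArG boxes given above belongs to this gene.

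IER5, an early response gene known to act with the phosphatase PP2A and the heat shock factor HSF1, followed the same order. It had 11.00 and 11.09 on the EGF siC arrays and 9.95 and 10.17 on the HRG siC arrays, against 8.66 and 8.78 on the starved siC arrays. The 3 groups did not overlap. Its log2 fold change was 2.32 with EGF (SE 0.30, adjusted p = 0.000552) and 1.34 with HRG (SE 0.30, adjusted p = 0.0299). Again the HRG call ended when any of the 4 arrays compared was left out, at adjusted p-values of 0.136 to 0.182, while the EGF call held under each array left out. IER3, a stress-inducible regulator of apoptosis that is not a DNA-binding factor, had 12.98 and 13.20 on the EGF siC arrays, against 11.94 and 12.07 on the starved siC arrays. It rose by 1.08 (SE 0.25, adjusted p = 0.0212), a call that ended when any of the 4 arrays was left out, at adjusted p-values of 0.0883 to 0.152. With HRG, IER3 had 12.49 and 12.91 and a log2 fold change of 0.69 that was not called (adjusted p = 0.185).

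Among the Jun proteins, JUN, the founding Jun subunit, was called with both ligands. It had 9.75 and 9.84 on the EGF siC arrays and 9.84 and 9.63 on the HRG siC arrays, against 8.57 and 7.92 on the starved siC arrays. The EGF and HRG arrays overlapped and lay above both starved arrays. The log2 fold change was 1.55 with EGF (SE 0.28, adjusted p = 0.00507) and 1.49 with HRG (SE 0.28, adjusted p = 0.0107). The starved siC arrays differed by more than the treated ones, and without starved siC replicate 2 the adjusted p was 0.0737 for EGF and 0.140 for HRG, while without HRG siC replicate 1 it was 0.113 for HRG. JUNB, a Jun protein that often restrains JUN, had 7.80 and 7.79 on the EGF siC arrays and 7.02 and 7.48 on the HRG siC arrays, against 6.38 and 6.49 on the starved siC arrays. It rose with EGF by 1.36 (SE 0.27, adjusted p = 0.00959), a call that ended when any of the 4 arrays compared was left out (adjusted p-values of 0.0536 to 0.0779). The HRG value was 0.81 and not called (adjusted p = 0.146).

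JUND, known for steady expression, was not called with either ligand. It had 11.45 and 12.37 on the EGF siC arrays and 11.61 and 12.35 on the HRG siC arrays, against 11.62 and 11.50 on the starved siC arrays. In both treated groups replicate 1 lay near the starved level and replicate 2 well above it. HRG siERRα cells had the same order, with 11.58 on replicate 1 and 12.22 on replicate 2. EGF siERRα cells did not, with 12.37 on replicate 1, the array that stood apart, and 12.20 on replicate 2. A difference between replicate sets in JUND was not tested. The log2 fold changes were 0.35 with EGF (95% confidence interval -0.28 to 0.98, adjusted p = 0.625) and 0.42 with HRG (-0.21 to 1.04, adjusted p = 0.601), so an increase of the size seen for JUNB with HRG was within the interval.

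Of the Fos proteins, FOSL1 (Fra-1) had a probe near the detection limit. It was detected on 7 arrays, both EGF siC, both HRG siC and both EGF siERRα arrays and HRG siERRα replicate 2, and on none of the starved, parental and resistant arrays. It had 6.37 and 7.14 on the EGF siC arrays and 6.76 and 6.05 on the HRG siC arrays, against 5.26 and 4.87, below detection, on the starved siC arrays. FOSL1 was at least 1.84-fold higher with EGF (adjusted p = 0.00865) and at least 1.44-fold higher with HRG (adjusted p = 0.0452), where the bound sets the mean of the bright group against the lowest detected signal of each dim array or the probe's own value if higher. It was tested because growth factor groups detected it, so the filter favoured this direction. In the fit without a detection filter its adjusted p was 0.0145 with EGF and 0.0748 with HRG. With the filter, the EGF call ended without starved siC replicate 2 (adjusted p = 0.0975) or EGF siC replicate 2 (adjusted p = 0.0889). The HRG call ended under 14 of the arrays left out in turn, at adjusted p-values of 0.0511 to 0.380.

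FOSL2 (Fra-2), detected on 20 arrays, had 7.25 and 7.55 on the EGF siC arrays and 7.83 and 7.71 on the HRG siC arrays, against 6.68 and 6.83 on the starved siC arrays. Neither treated group overlapped the starved one, and its difference of HRG over EGF was the most positive among the 9 members. It was not called with EGF (log2 fold change 0.64, adjusted p = 0.222, or 0.0638 with 19 arrays). With HRG its log2 fold change was 1.01, with an adjusted p of 0.063 that became 0.0107 with 19 arrays. FOS itself was barely measurable. Its probe was detected on 1 of 20 arrays, EGF siC replicate 2, at 6.44, against 4.48 to 5.56 on the 19 others, and EGF siC replicate 1 had 5.24 against 4.98 and 4.68 on the starved siC arrays. FOS had no test after the filter, and without the filter its log2 fold change with EGF was 1.01 (adjusted p = 0.261).

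ATF3, a stress-induced partner of Jun proteins, had 9.47 and 10.57 on the EGF siC arrays and 9.24 and 9.76 on the HRG siC arrays, against 8.61 and 8.24 on the starved siC arrays. Every treated array lay above both starved ones. The log2 fold change was 1.59 with EGF (SE 0.67, adjusted p = 0.226) and 1.07 with HRG (SE 0.67, adjusted p = 0.530). With 19 arrays the SE was 0.31 and the adjusted p 0.00535 with EGF and 0.0558 with HRG, and the array that stood apart differed from its replicate by more in ATF3 than in any other tested member. Of the other ATF3 probes, ILMN_1661109 was detected on replicate 2 of EGF siC (6.35) and of EGF siERRα (6.15) and ILMN_1791346 on 0 arrays.

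The 2 ligands were set against each other directly. In siC cells 0 of 9 members were called between HRG and EGF, as were 0% of all genes, while 2 members had an unadjusted p under 0.05. These were EGR1, with a log2 fold change of HRG over EGF of -0.93 (95% confidence interval -1.59 to -0.27), and IER5, with -0.98 (-1.64 to -0.33). With 19 arrays IER5 passed the test (adjusted p = 0.0424), as did 0.073% of all genes. JUN had a difference of -0.06 with an interval of -0.65 to 0.54, JUND of 0.06 (-0.56 to 0.69) and FOSL2 of 0.37 (-0.21 to 0.94), so differences of moderate size in either direction lay within these intervals. Of the 9 members, 7 had negative values, and these comparisons share the EGF arrays with those above.

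The responses were also measured in ERRα-depleted cells. With EGF over starved siERRα cells, the same 5 of the 8 members as in siC cells were called (JUN, JUNB, EGR1, IER3 and IER5), all higher, against 11.6% of all genes, and 7 of the 8 were called with 19 arrays, against 5.26% of genes. Among them EGR1 had 9.40 and 9.95 on the EGF siERRα arrays, against 7.44 and 6.83 on the starved siERRα arrays, a log2 fold change of 2.54 (SE 0.31, adjusted p = 0.000302). JUNB had 7.23 and 7.85 with EGF, against 5.79 on each of the starved siERRα arrays, of which 1 was below detection, a log2 fold change of 1.74 (SE 0.27, adjusted p = 0.00185). FOSL1, tested for the reason given above, was at least 2.25-fold higher (adjusted p = 0.00259, or 0.00426 without the detection filter).

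The array that stood apart had low values in ATF3 and IER5. In IER5, EGF siERRα replicate 1 had 9.60 and replicate 2 had 10.94, against 8.51 and 8.77 on the starved siERRα arrays, and the log2 fold change was 1.63 with 20 arrays (adjusted p = 0.00564) and 2.30 with 19 (adjusted p = 2.59e-05). In ATF3, EGF siERRα replicate 1 had 7.24, below both starved siERRα arrays (8.62 and 8.25), and replicate 2 had 10.27. The log2 fold change of ATF3 was 0.32 with 20 arrays (adjusted p = 0.758) and 1.84 with 19 (adjusted p = 0.0150), where the EGF group is a single array. FOSL2 was likewise called with 19 arrays (0.95, adjusted p = 0.0481) and not with 20 (0.55, adjusted p = 0.160). Without starved siERRα replicate 1 the adjusted p was 0.0622 for IER3 and 0.0621 for IER5.

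With HRG over starved siERRα cells, JUN, JUNB, EGR1 and IER5 were called of the 8, all higher, against 2.65% of all genes. JUNB had 7.06 and 7.56 on the HRG siERRα arrays, a log2 fold change of 1.52 over starved siERRα cells (SE 0.27, adjusted p = 0.00788). JUN rose by 1.68 (adjusted p = 0.00465), EGR1 by 1.53 (adjusted p = 0.0177) and IER5 by 1.53 (adjusted p = 0.0164). FOSL1 had 5.31 and 6.11, of which replicate 2 was detected, and was not called (adjusted p = 0.285). With 19 arrays ATF3 (1.14, adjusted p = 0.0421) and IER3 (0.86, adjusted p = 0.0460) were called as well, against 8.05% of genes. The calls rested on few arrays, and without starved siERRα replicate 1, starved siERRα replicate 2, HRG siERRα replicate 1 or HRG siERRα replicate 2, the number of members called was 2, 0, 2 and 1.

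Depletion of ERRα, with the ESRRA values given above for each setting, called 0 of the 9 members in each of the 5 settings. All genes called there amounted to 0.073% with EGF, 0% with HRG, 0.0104% in starved, 0.0104% in resistant and 0% in parental cells, so the absence of members is not particular to them. The members with an unadjusted limma p under 0.05 were JUNB in starved cells, IER5 in EGF-treated cells and FOSL2 in parental cells. JUNB had 5.79 on both starved siERRα arrays, against 6.38 and 6.49 on the starved siC arrays, a log2 fold change of -0.65 (95% confidence interval -1.22 to -0.07). FOSL2 had 6.40 and 6.04 on the parental siERRα arrays, against 6.72 and 7.06 on the parental siC arrays, a log2 fold change of -0.68 (-1.25 to -0.10). IER5 with EGF had -0.77 with 20 arrays and -0.11 with 19.

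**Figure D3:**
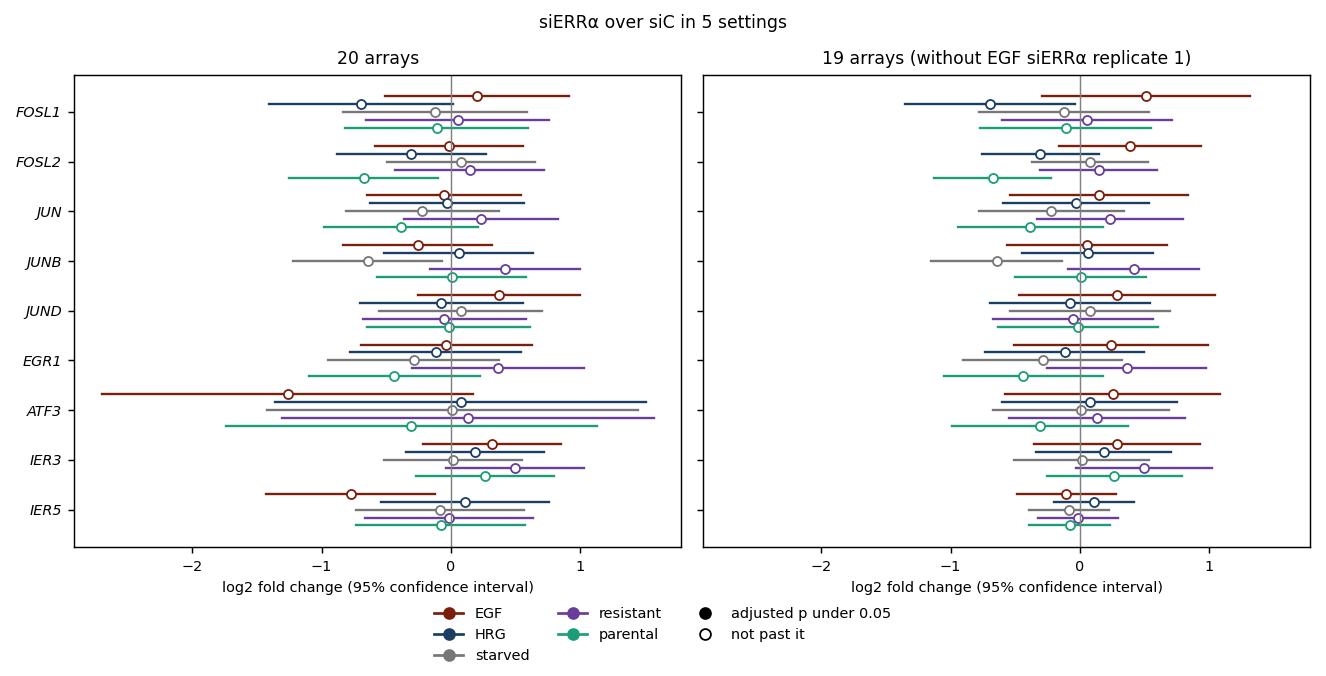
Log2 fold change (x axis) of siERRα over siC for each tested gene (y axis) in each of 5 settings, with 95% confidence intervals from the fit of 20 arrays (left) and of 19 (right). No symbol is filled, as 0 members passed the test, and the intervals of ATF3 are narrower with 19 arrays.

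Averaged over the 5 settings, 0 members were called, against 0.0104% of all genes. The log2 fold changes ran from -0.27 in ATF3 to 0.25 in IER3, whose 95% confidence interval was 0.02 to 0.49 (unadjusted p = 0.0378 in limma, adjusted p = 0.551). For JUN the interval was -0.36 to 0.17 and for EGR1 -0.40 to 0.19. Whether the siERRα response itself differed between EGF-treated and starved, HRG-treated and starved, or resistant and parental cells was tested with 3 interaction terms, in each of which 0 members and 0% of all genes were called. Across these terms 1 member had an unadjusted limma p under 0.05, FOSL2 between resistant and parental cells (0.82, 95% confidence interval 0.01 to 1.63).

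EGR1 was lower in lapatinib-resistant than in parental cells. Its log2 intensity was 5.47 and 5.64, below detection, on the resistant siC arrays, against 8.01 and 7.45 on the parental siC arrays. On the siERRα arrays it was 6.07 and 5.76 in resistant cells, against 7.60 and 6.97 in parental cells. The 4 resistant arrays were the lowest of all 20 for EGR1, below every starved array. EGR1 was at least 4.29-fold lower in resistant siC cells (adjusted p = 0.00118), and this call held under each array left out. In siERRα cells it fell by 1.37 (SE 0.31, adjusted p = 0.0196), a call that ended without parental siERRα replicate 1 (adjusted p = 0.207), resistant siERRα replicate 1 (adjusted p = 0.0645) or resistant siERRα replicate 2 (adjusted p = 0.166).

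EGR1 was the single member called in either comparison. The share of all genes called was 4.5% in siC cells and 5% in siERRα cells, or 10.2% and 11.2% with 19 arrays, where again EGR1 alone of the 9 was called. JUN had 7.84 and 8.02 on the resistant siC arrays, against 8.90 and 8.41 on the parental siC arrays, without overlap, and was not called (log2 fold change -0.73, adjusted p = 0.190). JUND had 12.21 and 12.19 on the resistant siC arrays, against 11.77 and 11.63 on the parental siC arrays, also without overlap (0.50, adjusted p = 0.461). IER5 had 8.71 and 8.82 in resistant siC cells, against 8.70 and 8.86 in parental siC cells, with an interval of the log2 fold change of -0.67 to 0.64. The other members had values between -0.26 and 0.17 in siC cells.

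**Figure D4:**
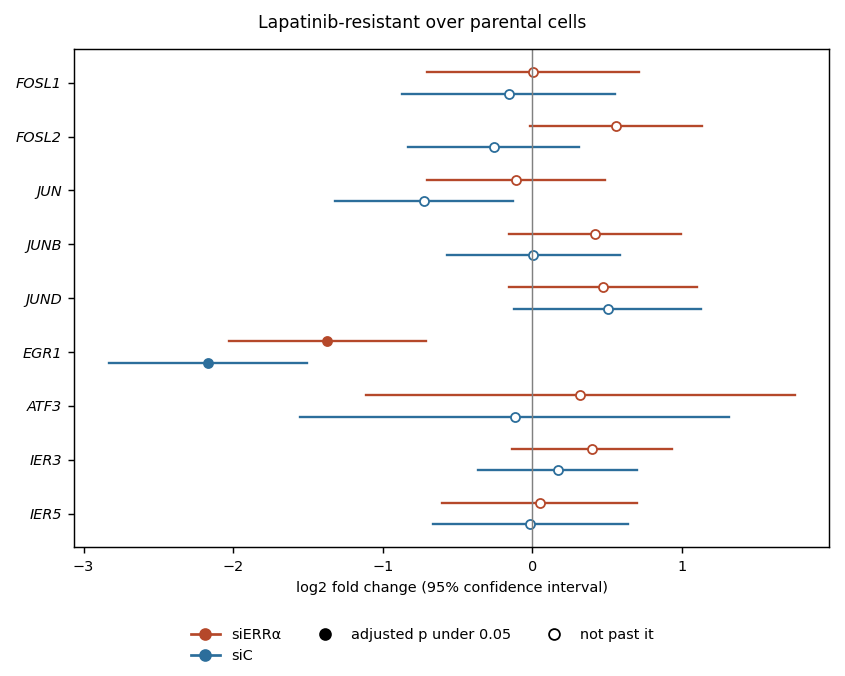
Log2 fold change (x axis) of resistant over parental cells for each tested gene (y axis), with siERRα above siC, 95% confidence intervals from the fit of 20 arrays and filled symbols where the adjusted p was under 0.05. EGR1 is lowest at -1.37 with siERRα and at -2.17 with siC, a value measured on resistant arrays below detection and so only a bound, while every other interval but that of JUN with siC covers 0.

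Serum-fed parental cells were also set against starved cells. In siC cells 0 of 9 members were called, with 0.73% of all genes called and log2 fold changes from -0.52 in IER3 to 0.41 in JUN. The number with an unadjusted limma p under 0.05 was 0. These groups differed in serum and in vehicle (DMSO or PBS). Serum, vehicle and any difference between the experiments cannot be told apart here.

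Ordered over the 10 groups, EGR1 ran from 9.71 ± 0.29 (SD, n = 2 here and in the following means) in EGF siC, through 9.68 ± 0.39 in EGF siERRα, 8.78 ± 0.20 in HRG siC and 8.66 ± 0.41 in HRG siERRα, to 7.73 ± 0.40 in parental siC and 5.55 ± 0.11, below detection, in resistant siC cells. The EGF groups overlapped each other, as did the HRG groups, while neighbours on either side of the step between EGF and HRG did not overlap. IER5 fell in a different order, with 11.04 ± 0.07 in EGF siC cells and the 6 groups without growth factor packed between 8.64 and 8.78, each overlapping the next. FOSL1 was highest in EGF siERRα cells at 6.96 ± 0.44 and JUN in EGF siC cells at 9.79 ± 0.06. JUND had the narrowest range of group means among the tested members, 0.72.

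Likeness to other genes was taken as Pearson's r over the 10 group means of log2 intensity, of which 4 are of growth factor-treated cells, and is a description with no test. Here, unlike in the means above, EGF siERRα was represented by replicate 2 alone, as the array that stood apart was left out. EGR1 was most like TIPARP (r = 0.985), PLAU (0.985) and PFKFB3 (0.979). IER5 was most like KCTD5 (0.992), GPAT3 (0.991) and CSRNP1 (0.991), and JUN was most like UBALD1 (0.986), HBEGF (0.984), which encodes an EGFR ligand, and MYEOV (0.982). FOSL1 was most like ARNT2 (0.978), MACIR (0.975) and its relative FOSB (0.972). JUNB was most like ITPKC (0.974), ZNF697 (0.974) and PTPN1 (0.971), and IER3 most like AGO2 (0.980), CEBPB (0.978) and RNF126 (0.975).

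Other genes of the pathway were followed in 5 lists. Of 13 dimer partners and other bZIP genes, 6 were measured, and with EGF in siC cells 1 was called higher and 1 lower. The share of all genes called in this comparison was 5.23%. With 19 arrays 2 were called higher and 1 lower, against 11.7% of genes. The Fos family member FOSB, named after its values were seen, rose by 2.03 with EGF (adjusted p = 0.0832, or 0.0241 with 19 arrays). Its HRG value of 1.38 was not called (adjusted p = 0.320). The small Maf protein MAFF rose by 2.29 (SE 0.43, adjusted p = 0.00643), while JDP2, a repressor that dimerizes with Jun, fell by 1.46 (SE 0.17, adjusted p = 0.000296) and also fell with HRG by 0.75 (adjusted p = 0.0335). Of the other immediate early genes, 19 were measured of 28 names, and 11 were called higher with EGF and 5 with HRG, with 0 lower and medians of 1.27 and 0.91, against the 5.23% and 2.91% of all genes called. With 19 arrays these counts were 14 and 11, against 11.7% and 7.64%. KLF10 passed the filter only through growth factor groups, and was called with EGF with 19 arrays but not with 20. Without KLF10 the counts with 19 arrays were 13 and 11 of 18. The genes called with EGF included the matricellular CCN2 (2.11, adjusted p = 0.00307) and CCN1 (1.84, adjusted p = 0.0151), the ERK phosphatase DUSP1 (1.88, adjusted p = 0.00507) and the mRNA decay factor ZFP36 (1.79, adjusted p = 0.00627).

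Of the upstream factors, 6 of 10 names were measured, and 2 were called with EGF and 1 with HRG, or 4 and 2 with 19 arrays. The shares of all genes called were 5.23% and 2.91%, or 11.7% and 7.64% with 19 arrays. ELK4 passed the filter only through growth factor groups, and among the 5 others the counts were the same. SRF, which binds the CArG box, rose by 1.57 with EGF (SE 0.16, adjusted p = 9.49e-05) and by 1.48 with HRG (adjusted p = 0.000333), and its coactivator MRTFA was at least 2.32-fold higher with EGF (adjusted p = 0.0197). Of 10 measured kinases and turnover factors of AP-1, FBXW7, a ubiquitin ligase subunit for JUN, was the 1 called with EGF (0.91, adjusted p = 0.0102), and 0 were called with HRG, where the list median was 0.09. Beside the same shares of all genes, these counts do not set the kinase list apart. Of 10 measured textbook AP-1 targets, 5 were called higher with EGF and 2 with HRG, against 3.46% and 1.94% of all genes called higher. Every gene of the list had a positive value in both, as did 43% and 44.2% of all genes. With 19 arrays the counts were 7 and 4, against 6.75% and 4.4% of genes called higher. CXCL8 and MMP10 passed the filter only through growth factor groups, which favoured positive values in them. Without them 3 of 8 targets were called with EGF and 1 with HRG, with medians of 1.36 and 0.71. The shares called higher without all such genes were 3.09% and 1.77%. The chemokine CXCL8 rose by 3.49 with EGF (SE 0.64, adjusted p = 0.00586) and by 4.08 with HRG (adjusted p = 0.00333), and the protease PLAU by 2.50 (adjusted p = 0.000218) and 1.88 (adjusted p = 0.00274). The metalloproteinase MMP10 was at least 2.14-fold higher with EGF (adjusted p = 0.0113) and VEGFA rose by 1.36 (adjusted p = 0.0268).

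**Figure D5:**
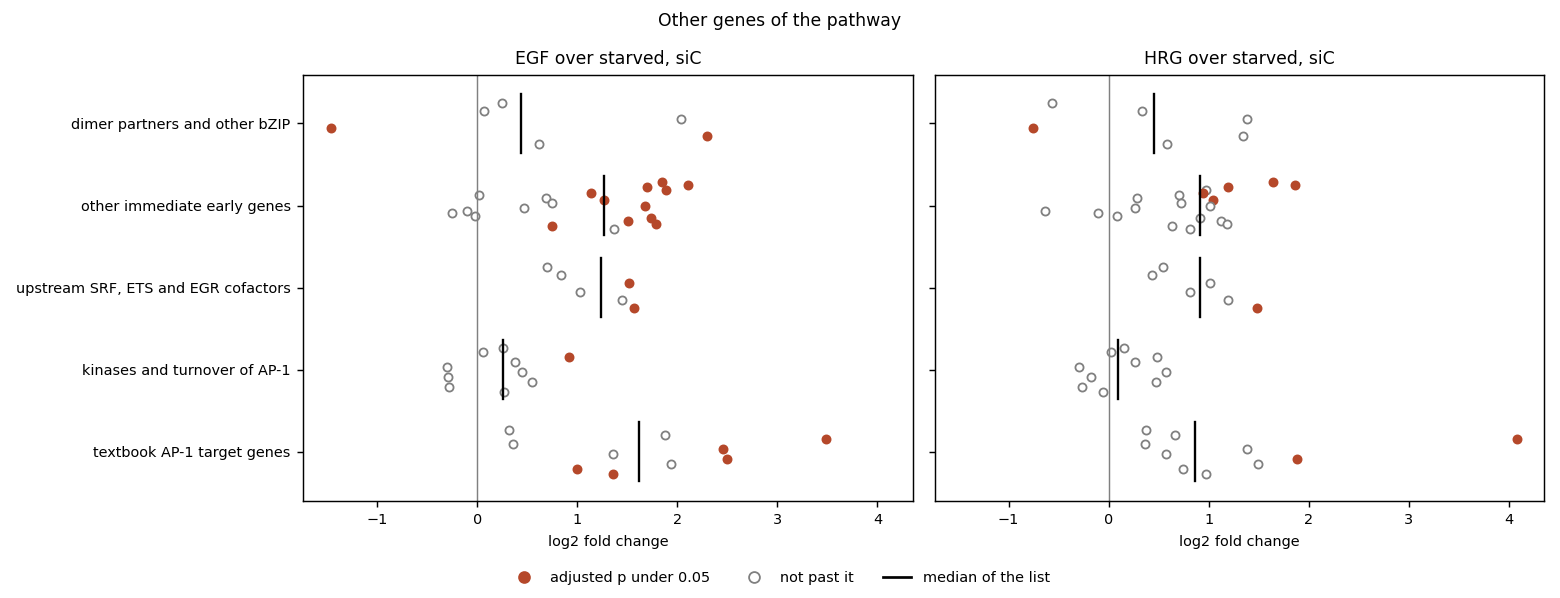
Log2 fold changes (x axis) of the measured genes of 5 lists (y axis) with EGF (left) and HRG (right) over starved siC cells, filled where the adjusted p was under 0.05, with a bar at the median of each list. The AP-1 target list has medians of 1.62 with EGF and 0.86 with HRG, and the kinase list of 0.26 and 0.09. Without CXCL8 and MMP10, which passed the filter only through growth factor groups, the AP-1 target medians are 1.36 and 0.71.

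Of the AP-1 targets PLAU alone was called with 20 arrays (2 targets with 19), at least 2.40-fold lower in resistant siC cells (adjusted p = 0.00635) and at least 2.11-fold lower in resistant siERRα cells (adjusted p = 0.00518), against 4.5% and 5% of all genes called. Values were negative in 10 of 10 targets in siC cells and 9 of 10 in siERRα cells, against 48.2% and 50.2% of all genes. These 10 include CXCL8 and MMP10, which no parental or resistant group detected on both arrays. The signs of CXCL8 and MMP10 here rest on values at or near the detection limit. The Krüppel-like factor KLF2, named after its values were seen, was the 1 other immediate early gene called in siC cells (-1.33, adjusted p = 0.00323) and was also lower in siERRα cells (-1.11, adjusted p = 0.00816). KLF4, likewise named after its values were seen, was called higher in siERRα cells (1.03, adjusted p = 0.0262), with 0.43 in siC cells (adjusted p = 0.450). NFKBIZ had 1.55 in siC cells and was called there with 19 arrays (adjusted p = 0.00596) but not with 20 (adjusted p = 0.0773). FBXW7 was higher in resistant than in parental cells, by 0.87 in siC (adjusted p = 0.0155) and 0.89 in siERRα (adjusted p = 0.0117).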

How the data were processed

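Total RNA of 20 samples was hybridized to Illumina HumanHT-12 v4 arrays. The authors deposited a table of bead-summarized intensity per probe and array, on a linear scale and without normalization, with a detection p-value for each, and a second table normalized with lumi in FlexArray, whose values were read as log2 and used as an alternative. The authors tested with SAM and Student's t-tests. Per the sources used here, the version of lumi is not given, and 0 columns of per-sample values had no sample.

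Intensities were background-corrected with normexp fitted on the detection p-values (offset 16), normalized between arrays by quantiles and log2-transformed (limma 3.58.1, R 4.3.3). Probes were named through the platform annotation, in which 30113 carried 1 symbol. Of several passing probes of a gene, the one of highest mean intensity stood for it. The 20 arrays entered 1 limma fit of 10 group means, which left 10 residual degrees of freedom. It gave 17 two-sided comparisons with Benjamini-Hochberg adjustment over 9592 genes and calls at an adjusted p under 0.05. Fold changes include the offset, which understates those of dim probes, and the number of arrays limits the precision. Levels of different probes were not compared. The fit was tested on simulated data.

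The named genes were the 10 members and, of 5 lists, at most 4 called genes each with the largest change in the EGF or HRG comparison in siC cells. The members, lists and rules were chosen with earlier results of these data known. Alternatives were leaving out each array, a replicate block, no background correction, an offset of 50, median scaling, the deposited normalized table, no detection filter, detection on 20 arrays, every detected probe, only the groups compared and the methods' t-test. A change of sign counted as a reversal where the value was called in at least 1 of the fits compared. Promoter sequences were RefSeq's.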

Additional observations from a re-analysis of the deposited data

Results flagged for a closer look

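Of the 3 member probes left out of the tests, 2 were detected on a few EGF arrays and 1, the ATF3 probe ILMN_1791346, on 0 arrays. FOS had 6.44 on EGF siC replicate 2, and the ATF3 probe ILMN_1661109 had 6.35 on EGF siC replicate 2 and 6.15 on EGF siERRα replicate 2. On the arrays where they were not detected, the starved ones among them, FOS had 4.48 to 5.56 and this ATF3 probe 4.42 to 5.50. JUND had siERRα arrays below the siC arrays in resistant cells (log2 difference -0.051) and above them in starved cells (0.0745). The groups did not overlap in either setting, but both differences were smaller than their SE of 0.29, and the difference between these settings was not tested. Groups of 2 arrays are too small to test for a single far array.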

How the results depend on the processing

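Each array was left out in turn. Counts here are over the 9 tested members, FOSL1 included. The lowest and highest numbers of members called were then 2 and 7 for EGF in siC cells (6 with all arrays), 0 and 5 for HRG in siC cells (4), 0 and 1 for HRG over EGF (0), 4 and 8 for EGF in siERRα cells (6), 0 and 6 for HRG in siERRα cells (4), 1 and 1 for resistance in siC cells (1), and 0 and 1 for resistance in siERRα cells (1). For siERRα over siC with EGF, for its mean over 5 settings and for its difference between EGF-treated and starved cells they were 0 and 2 (0), the 2 being ATF3 and IER5 when EGF siERRα replicate 2 was left out and the array that stood apart represented the group. There ATF3 with EGF in siERRα cells reversed to -1.19 (adjusted p = 0.0193), the lowest value, against the highest, 1.84, without replicate 1. Requiring detection on all 20 arrays tests 6 members and gave 3 calls for EGF in siC cells, 3 for EGF in siERRα cells, 2 for HRG in siERRα cells and 0 for resistance in siC and in siERRα cells, as EGR1 leaves the test. Fitting only the groups compared gave 1 call for HRG in siC cells, 0 for EGF in siERRα cells and 1 for HRG in siERRα cells, with fewer arrays to estimate the spread. Median scaling gave 2 calls for HRG in siC cells, and without background correction or with the deposited normalized table resistance in siERRα cells gave 0, and the cause was not tested. The methods' t-test gave 0 calls after Benjamini-Hochberg adjustment in all of these comparisons, and 5, 4, 6 and 4 members passed its unadjusted threshold with EGF and HRG in siC and then in siERRα cells, 2 and 1 with resistance.

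With the replicate block, the members called numbered 6 and 5 for EGF and HRG in siC cells, 6 and 4 in siERRα cells, 1 and 1 for resistance, and 0 in the other comparisons. Same-numbered arrays were not paired in the main fit. In 21 of 45 pairs of groups their deviations correlated above 0.1 (-0.08 to 0.32, median 0.09). Whether same-numbered arrays shared an effect was not tested. Dim probes near background, as of FOS, FOSL1 and EGR1 in resistant cells, limit how small a level can be measured.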
